A study of Mus musculus with 11 samples.

Results

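Cells of the SMB21 medulloblastoma line that carry a mutation in Ofd1 were compared with cells of the same line that carry a mutation in Sufu, by the RNA level of every counted gene. The comparison covers 6 of the 11 libraries of the study. The Ofd1-mutant group holds 4 libraries from 3 clones, with clone R14 sequenced as 2 biological replicates and clones R16 and R25 sequenced once each. The Sufu-mutant group holds 2 libraries, from clones R13 and R1. The libraries were assigned by the genotype that the labels give them. SMB21 is grown as neurospheres and comes from mice with a mutated Ptch1 (strain Ptch1tm1Mps/J), so both groups share the Ptch1 lesion. The clones came from a drug resistance screen, and the labels do not say whether they were kept in drug. The same line without either mutation served for orientation, as 2 libraries of parental cells after 24 h with sonidegib, a Smoothened inhibitor, and 3 libraries of untreated parental cells. A Sufu or an Ofd1 clone is a single line, so the spread between libraries mixes clone and culture, and the R14 pair shares a clone.

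Hedgehog signalling in granule cell progenitors of the cerebellum is held off by the receptor Ptch1, and its loss frees Smoothened to activate the Gli transcription factors through the primary cilium. Sufu binds Gli proteins downstream of Smoothened and keeps them inactive, so its loss bypasses the drug target. Ofd1 is a protein of the centriole and of centriolar satellites that takes part in building the cilium, and cilia are needed both to activate and to process Gli proteins. The comparison asks which transcripts tell these routes of resistance apart.

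Few transcripts separated the classes beyond the spread between libraries, in a test that counts the R14 pair as 2. Trpm3, a calcium-permeable cation channel of the TRP family, was the 1 gene of 14026 tested that passed, and it was higher in every Ofd1 library. With the R14 libraries summed to 1, or with clone R14 left out, 0 genes passed. The largest contrasts that did not pass included the axon guidance ligand Sema3e and the genes Lrrfip1 and Hpca, which were lower in all Ofd1 libraries, and Col18a1 and Cdh8, which were higher. The promoters of the called gene and of the pair of genes with the cleanest lower levels are shown because these transcripts were either near absence or several-fold apart between classes. They are the 250 bases before each annotated start, read 5′ to 3′ on the gene's strand from RefSeq annotation of GRCm38.p6. Trpm3 lies on chromosome 19, Sema3e on chromosome 5 and Lrrfip1 on chromosome 1, all on the plus strand, and Trpm3 and Lrrfip1 have a pair of starts each. Capitals mark GC boxes, searched as GGGCGG and, for the other strand, CCGCCC.
Trpm3 start 1, chr19:22138796-22139045: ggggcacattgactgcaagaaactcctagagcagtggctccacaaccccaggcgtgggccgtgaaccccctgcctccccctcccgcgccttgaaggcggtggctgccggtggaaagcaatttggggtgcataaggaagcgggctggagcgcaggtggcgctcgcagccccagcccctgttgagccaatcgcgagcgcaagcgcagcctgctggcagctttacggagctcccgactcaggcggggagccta
Trpm3 start 2, chr19:22447958-22448207: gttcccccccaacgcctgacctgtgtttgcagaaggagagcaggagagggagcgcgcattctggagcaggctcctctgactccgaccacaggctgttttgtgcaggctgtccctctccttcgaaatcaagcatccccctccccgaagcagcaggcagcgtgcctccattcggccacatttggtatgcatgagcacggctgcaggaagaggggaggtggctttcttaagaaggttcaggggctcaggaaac
Sema3e, chr5:14025026-14025275: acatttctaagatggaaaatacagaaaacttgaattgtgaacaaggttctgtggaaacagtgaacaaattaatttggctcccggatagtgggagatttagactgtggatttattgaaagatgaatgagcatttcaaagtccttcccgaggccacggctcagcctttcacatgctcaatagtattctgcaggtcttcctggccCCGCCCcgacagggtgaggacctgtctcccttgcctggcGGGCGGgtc
Lrrfip1 start 1, chr1:90998477-90998726: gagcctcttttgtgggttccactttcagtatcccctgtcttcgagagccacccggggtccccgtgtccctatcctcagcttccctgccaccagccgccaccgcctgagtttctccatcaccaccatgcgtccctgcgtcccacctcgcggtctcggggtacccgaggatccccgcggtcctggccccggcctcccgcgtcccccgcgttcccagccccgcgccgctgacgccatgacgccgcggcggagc
Lrrfip1 start 2, chr1:91053194-91053443: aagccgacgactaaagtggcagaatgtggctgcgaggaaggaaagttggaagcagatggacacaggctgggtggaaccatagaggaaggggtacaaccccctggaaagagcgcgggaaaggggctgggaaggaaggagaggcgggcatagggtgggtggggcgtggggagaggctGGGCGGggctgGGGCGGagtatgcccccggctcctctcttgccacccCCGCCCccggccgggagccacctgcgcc
GC content of these windows was 66.4% and 59.2% for Trpm3, 48% for Sema3e, and 70% and 66.8% for Lrrfip1. The Trpm3 windows held 0 GC boxes, the Sema3e window 2, and the Lrrfip1 windows 0 and 3, where 57% of 13113 promoters of tested genes hold at least 1. A perfect Gli site, searched as GACCACCCA or TGGGTGGTC in the window from 250 bases before to 50 after the start, was found in 30 of 10244 genes tested (0.293%). It was found in 0 of 13 Hedgehog targets and in 0 of 12 higher and 0 of 12 lower named genes with an entry. No match says only that these letters are not in this window.

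Levels are given in CPM, counts scaled to a common library size with TMM factors. For the Ofd1 mutants they are listed in the order R14 library 1, R14 library 2, R16 and R25, and for the Sufu mutants in the order R13 and R1. Totals were 30853655 to 37457641 counts in the Ofd1 libraries, 24308451 and 24433265 in the Sufu libraries, 29294858 and 34419880 after sonidegib and 32376390 to 38241595 in untreated cells. Across the genes tested, log2 levels differed with an SD of 0.51 between the libraries of clone R14, 0.56 to 0.84 between Ofd1 clones and 0.91 between the Sufu clones. The Ofd1 and Sufu libraries differed from each other by 0.71 to 0.96, a range that includes the distance between the Sufu clones. Granule lineage genes marked all 6 clone libraries, with Zic1 at 522 to 684 CPM, Atoh1 at 248 to 566 CPM and Barhl1 at 212 to 484 CPM. Parental libraries stood apart in 2 cases: untreated replicate 3 lay at -10.0 on the second principal component against 48.9 and 45.5 for untreated replicates 1 and 2, and sonidegib replicate 2 lay at -58.4 against 43.6 for replicate 1. Counts that rest on them are also given without them.

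The mutated genes were still transcribed in their clones. Ofd1 had 13.6, 23.3, 9.30 and 13.8 CPM in the Ofd1 mutants, against 42.9 and 40.5 CPM in the Sufu mutants, 45.1 and 23.2 CPM after sonidegib and 42.8, 35.3 and 37.1 CPM in untreated cells. All 4 Ofd1-mutant libraries lay below both Sufu clones, at a log2 fold change of -1.48 ± 0.33 (SE) that did not pass (edgeR adjusted p = 0.315). Sufu had 11.99, 12.4, 15.7 and 19.3 CPM in the Ofd1 mutants, against 2.79 and 17.8 CPM in the Sufu mutants and 29.5, 27.6 and 28.6 CPM in untreated cells. The Sufu transcript was low in clone R13 but within the range of the Ofd1 mutants in R1, and its log2 fold change of 0.52 ± 0.64 (edgeR adjusted p = 0.837) turned to -0.27 without R13. The label of R1 is thus not checked by the level of its mutated gene.

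Trpm3 rose in the Ofd1 mutants. It had 17.2, 18.6, 18.8 and 22.3 CPM there, against 1.21 and 0.972 CPM in the Sufu mutants, a log2 fold change of 4.12 ± 0.25 (edgeR adjusted p = 0.00915). The 3 Ofd1 clones lay within a narrow range, 19.2 ± 2.16 CPM (SD, n = 4), and the Sufu clones at 1.09 ± 0.170 CPM (n = 2). Parental cells were uneven, with 2.17 and 7.01 CPM after sonidegib and 1.83, 2.25 and 10.3 CPM untreated, so Ofd1 mutants lay above and Sufu mutants below every parental library. The call was 1 of 14026 genes, 0.00713% of those tested, with 0 lower. At an unadjusted p under 0.05 there were 1253 genes (8.93%), 597 higher (4.26%) and 656 lower (4.68%), and by DESeq2 153 genes (1.09%) passed as higher and 122 (0.87%) as lower. The Trpm3 call was lost without R14 library 1 (edgeR adjusted p = 0.0632), R14 library 2 (0.0639), R16 (0.0904) or Sufu R1 (0.0659), and with the R14 libraries summed to 1 (0.0759), while its log2 fold change stayed between 3.97 and 4.29 over all alternatives. Over these alternatives its adjusted p ran from 4.67e-43 with DESeq2 to 0.726 without clone R14.

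Since so few genes passed, the others named here are the genes of smallest p among those with a log2 difference of at least 1, a mean of at least 5 CPM in the higher class and no overlap between the Ofd1 and Sufu libraries. Such limits held for 104 genes higher in Ofd1 (0.741% of those tested) and 69 lower (0.492%), against 1321 (9.42%) and 1250 (8.91%) without overlap at any fold. None of the named genes other than Trpm3 passed the edgeR test (adjusted p = 0.0985 to 0.302), and all 15 higher and 15 lower genes, Trpm3 included, passed the DESeq2 test. The genes were chosen on the same libraries that DESeq2 tested, so its calls add no independent support.

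**Figure D1:**
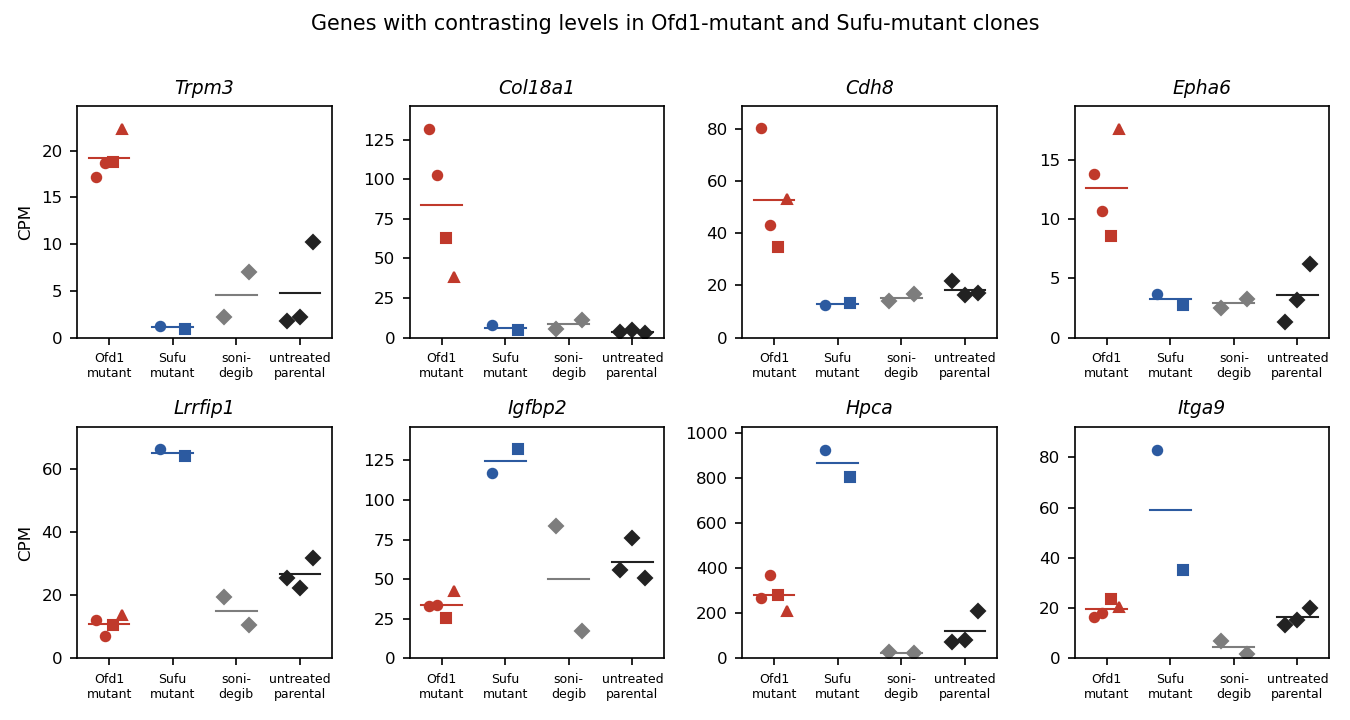
CPM of 8 named genes in each library, with Ofd1-mutant, Sufu-mutant, sonidegib-treated and untreated parental libraries from left to right and the group mean as a line. Marker shapes tell clones apart (circles for Ofd1 R14 and Sufu R13, squares for Ofd1 R16 and Sufu R1, triangles for Ofd1 R25). Trpm3, Col18a1, Cdh8 and Epha6 lie above both Sufu clones in all 4 Ofd1 libraries, and Lrrfip1, Igfbp2, Hpca and Itga9 lie below.

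Col18a1 and Cdh8 were among the genes with higher levels in Ofd1 mutants. Col18a1, whose product is a collagen of basement membranes, had 131, 103, 63.0 and 38.1 CPM in Ofd1 mutants, against 7.76 and 4.82 CPM in Sufu mutants. Its lowest Ofd1 library, R25, was still several times the highest Sufu clone, at a log2 fold change of 3.72 ± 0.59 (edgeR adjusted p = 0.268). Parental cells resembled the Sufu clones, with 5.74 and 11.1 CPM after sonidegib and 3.81, 4.74 and 2.83 CPM untreated. Cdh8, a classical cadherin of neurons, had 80.4, 43.1, 34.7 and 53.2 CPM in Ofd1 mutants, against 12.4 and 13.1 CPM in Sufu mutants. The Sufu clones nearly coincided for Cdh8 and lay below the 16.2 to 21.8 CPM of untreated cells (log2 fold change 2.04 ± 0.36). With the median shift of its chromosome block removed, the log2 fold change of Cdh8 was 1.65. Epha6, an ephrin receptor, had 13.8, 10.7, 8.55 and 17.6 CPM in Ofd1 mutants, against 3.68 and 2.79 CPM in Sufu mutants, again with no overlap (log2 fold change 1.96 ± 0.36). Chodl, a membrane protein with a lectin domain, was at 30.3 to 45.3 CPM in Ofd1 mutants and at 12.4 and 8.07 CPM in Sufu mutants.

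The other named higher genes had varied functions. Adcyap1r1, the receptor of the neuropeptide PACAP, which in mice is known to hold back Hedgehog-driven proliferation of granule cell progenitors, had 326, 325, 332 and 247 CPM in Ofd1 mutants, against 175 and 126 CPM in Sufu mutants. Its classes were separate, at a log2 fold change of 1.02 ± 0.19, and untreated cells held 194 to 256 CPM. Lhx4, a LIM homeodomain factor, was at 8.20 to 10.2 CPM in Ofd1 mutants and at 3.15 and 2.16 CPM in Sufu mutants. Kcnab1, a subunit of voltage-gated potassium channels, had a log2 fold change of 1.28 ± 0.26. Clcf1, a cytokine that acts through the CNTF receptor, had 1.56 ± 0.32, and Slc35f1, a member of a solute carrier family, had 1.59 ± 0.22. Dbi, which binds acyl-CoA, was at 187 to 256 CPM in Ofd1 mutants and at 123 and 102 CPM in Sufu mutants. Its log2 fold change of 1.02 was 0.41 with the median shift of its chromosome block removed. Pgm2, a phosphoglucomutase, was at 44.9 to 56.0 and at 26.1 and 15.7 CPM. Adc at 1.21, Aard at 1.72 and Prrt3 at 1.12 on the log2 scale complete the 15 genes.

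Among genes with lower levels in Ofd1 mutants, Lrrfip1 and Igfbp2 had the smallest p. Lrrfip1, whose product binds nucleic acids and the actin regulator Flightless-I, had 12.02, 7.21, 10.7 and 13.7 CPM in Ofd1 mutants, against 66.3 and 64.1 CPM in Sufu mutants. The Sufu clones lay above all parental libraries (19.3 and 10.6 CPM after sonidegib, 25.6, 22.2 and 31.96 CPM untreated) and the Ofd1 mutants below all untreated ones, at a log2 fold change of -2.59 ± 0.24 (edgeR adjusted p = 0.0985). With all 11 libraries in the fit, Lrrfip1 passed (edgeR adjusted p = 0.0277) and Trpm3 did not (0.327), and without the filter on low counts both passed. Over its alternatives the adjusted p of Lrrfip1 ran from 2.41e-16 with DESeq2 to 0.822 without clone R14. Igfbp2, which binds insulin-like growth factors, had 32.7, 33.9, 25.6 and 42.7 CPM in Ofd1 mutants, against 117 and 132 CPM in Sufu mutants. Untreated cells, at 50.9 to 75.8 CPM, lay between the classes for Igfbp2 (log2 fold change -1.90 ± 0.20, edgeR adjusted p = 0.1499).

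Sema3e, a secreted semaphorin that guides axons and vessels through the receptor plexin D1, was the clearest on-off contrast. It had 0 counts in all 4 Ofd1 libraries, against 109 and 101 counts in Sufu R13 and R1, which is 4.40 and 4.27 CPM. Parental cells held 0 and 1 counts after sonidegib and 0, 0 and 9 counts untreated, so only the Sufu clones expressed it at more than a trace among these libraries. Against a floor of 3 counts over the Ofd1 group, 0.0225 CPM, its level was at least 193-fold lower in Ofd1 than in Sufu mutants. It did not pass the test (edgeR adjusted p = 0.268), and it lies under the limit of 5 CPM used for the named genes, being named here as a member of the cell adhesion list.

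Some of the lower genes also had lower levels after sonidegib in parental cells. Hpca, a calcium sensor of neurons, had 265, 367, 282 and 210.3 CPM in Ofd1 mutants, against 922 and 805 CPM in Sufu mutants, 26.1 and 23.6 CPM after sonidegib and 70.9, 80.1 and 212 CPM in untreated cells. For Hpca both Sufu clones lay above every Ofd1 library, both sonidegib libraries lay below every untreated one, and the log2 fold change was -1.63 ± 0.21. Itga9, an integrin subunit, had 16.6, 18.1, 23.4 and 20.4 CPM in Ofd1 mutants, against 82.9 and 35.2 CPM in Sufu mutants, and 6.94 and 1.71 CPM after sonidegib against 13.4 to 20.01 CPM in untreated cells. It lies in a block of chromosome 9 genes with a median of -0.26, where 11 of 63 lay below and 0 above. The median log2 difference of that block from untreated cells was 0.59 in Sufu R13 and 0.02 in R1. For the lower genes that follow, sonidegib and untreated libraries overlapped, except for Lpl and Sobp, where both sonidegib libraries lay below. The Notch ligand Dll4 was at 1.44 to 2.42 CPM in Ofd1 mutants and at 5.21 and 8.62 CPM in Sufu mutants. Mmp14, a matrix metalloproteinase of the cell membrane, had a log2 fold change of -1.62 ± 0.32, lipoprotein lipase (Lpl) of -1.43 ± 0.30, and Insm1, a zinc finger factor of neural progenitors, of -1.01 ± 0.17. Others of the lower genes were Otud7a at -2.42, the amino acid transporter Slc7a7 at -2.22, Tmem54 and Ccdc33 at -1.67 each, Lmcd1 at -1.24 and Sobp at -1.01.

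Parental levels place these contrasts. Of the 15 named higher genes, untreated cells lay beyond the Ofd1 mean for 1, between the classes but nearer Ofd1 for 6, between and nearer Sufu for 5 and beyond Sufu for 3. For the 15 named lower genes these numbers were 8, 4, 2 and 1, so for 8 of them, Hpca included, both class means were higher than that of untreated cells and the Sufu mean more so. Without untreated replicate 3 they were 2, 4, 5 and 4 for the higher and 8, 2, 4 and 1 for the lower genes. Both sonidegib libraries lay below all untreated libraries for 6 of the 15 lower genes (40%) and for 29 of the 69 lower genes within the limits (42%), where 16.4% of all genes tested did so. For the 104 higher genes they lay below for 12 (11.5%) and above for 28 (26.9%), where 17.6% of all genes lay above. Without sonidegib replicate 2 the shares lying below were 55.1% of the 69 lower genes and 27.7% of all genes, and without untreated replicate 3 they were 46.4% and 23.6%. The shares lying above were 35.6% of the 104 higher genes and 30.4% of all genes without sonidegib replicate 2, a smaller excess, and 41.3% and 27.6% without untreated replicate 3. The sonidegib contrast shares no library with the contrast of the clones. Taken from the other side, the 575 genes that were lower after sonidegib by a log2 difference of at least 1 without overlap had a median log2 fold change of 0.06 between the clone classes, with 69 above (12%) and 58 below (10.1%) both Sufu clones. The 287 genes that were higher by as much had a median of 0.23, with 48 above (16.7%) and 8 below (2.79%). Of all genes tested, 9.42% lay above and 8.91% below, so the 575 genes lay below in a share near that of all genes. Without sonidegib replicate 2 these sets held 439 genes with a median of 0.11 (14.1% above, 11.2% below) and 214 genes with a median of 0.26 (10.7% above, 1.87% below). Without untreated replicate 3 they held 653 genes with a median of 0.05 (12.7% above, 9.19% below) and 407 genes with a median of 0.20 (14.3% above, 3.19% below).

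**Figure D2:**
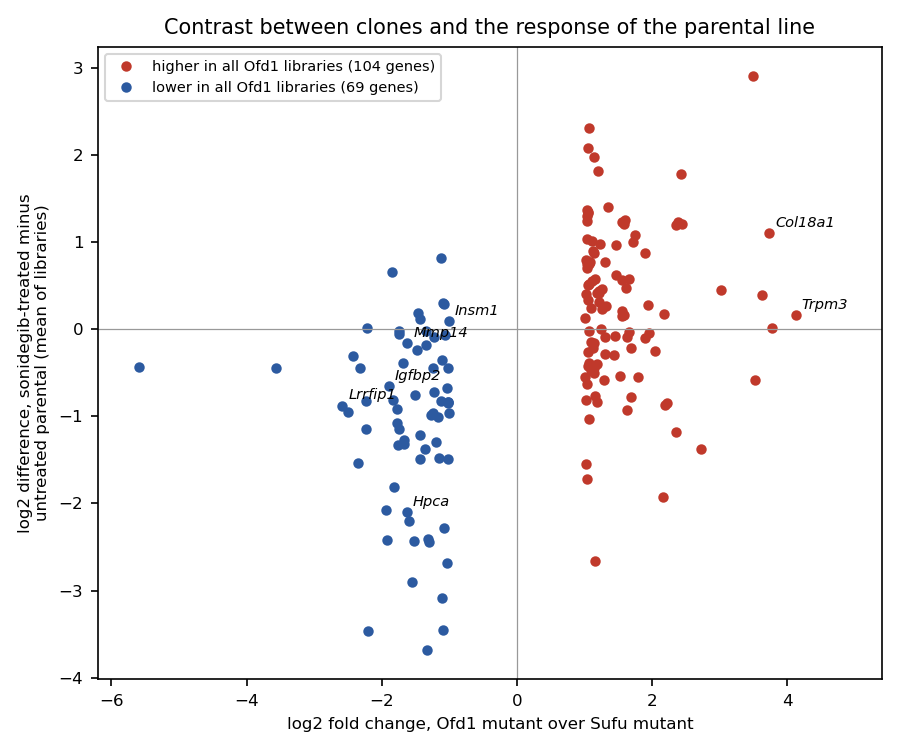
Log2 fold change of Ofd1 over Sufu mutants (x) against the log2 difference of sonidegib-treated minus untreated parental cells (y) for the 104 higher (red) and 69 lower (blue) genes within the limits of fold, level and no overlap. The lower genes have a median of -0.88 on the y axis and the higher genes 0.27.

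A larger share of Hedgehog targets than of all genes lay below the Sufu clones, and a similar share lay above. Of 19 tested, 0 passed, 2 lay above (10.5%, against 9.42% of all genes) and 5 below (26.3%, against 8.91%) both Sufu clones in all Ofd1 libraries, and the median log2 fold change was -0.03, against -0.0033 for all genes tested. The DESeq2 test called 1 of them lower. Gli1, the transcription factor that reads out the pathway, had 142, 125, 187 and 70.6 CPM in Ofd1 mutants, against 231 and 239.7 CPM in Sufu mutants, 7.68 and 8.72 CPM after sonidegib and 223, 219 and 242 CPM in untreated cells. All Ofd1 libraries lay below both Sufu clones and all untreated libraries, and above both sonidegib libraries (log2 fold change -0.85 ± 0.32, edgeR adjusted p = 0.518). Prdm1, a transcriptional repressor, had 0.898, 1.57, 1.60 and 2.49 CPM in Ofd1 mutants, against 5.50 and 6.85 CPM in Sufu mutants, with no overlap (log2 fold change -1.92 ± 0.41). The cell cycle kinase Cdk6 (-0.53) and Tulp3 (-0.20), which carries receptors into cilia, were also among the targets below. Cdk6 lies in a block of chromosome 5 genes with a median of -0.19, where 25 of 71 lay below and 1 above.

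The proliferation factor Mycn was among the targets that lay above, with 81.1, 74.2, 96.4 and 60.5 CPM in Ofd1 mutants, against 56.5 and 34.9 CPM in Sufu mutants (log2 fold change 0.76 ± 0.26). The zinc finger gene Zfp521 was the other (0.72). Other targets varied more within the Ofd1 class than between classes. Hhip, a Hedgehog-binding membrane protein, ran from 63.9 CPM in R14 library 1 to 288 CPM in R25, which spans its 161 and 248 CPM in Sufu mutants. The cyclin gene Ccnd1 reached 1433 CPM in R25 against 554 to 741 CPM in the other Ofd1 libraries, while Ccnd2 was lowest there, at 473 against 1063 to 1291 CPM. Ptch1 (-0.27), Bcl2 (0.09), Sfrp1 (-1.53), Igf2 (-1.16), Atoh1 (0.45), Foxa2 (0.31), Cntfr (0.35), Rab34 (0.09) and Nr2f2 (-0.03) overlapped between the classes. Igf2 rested on clone R13, with 53.4 CPM there and 13.2 CPM in R1, against 9.12 to 25.3 CPM in Ofd1 mutants.

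**Figure D3:**
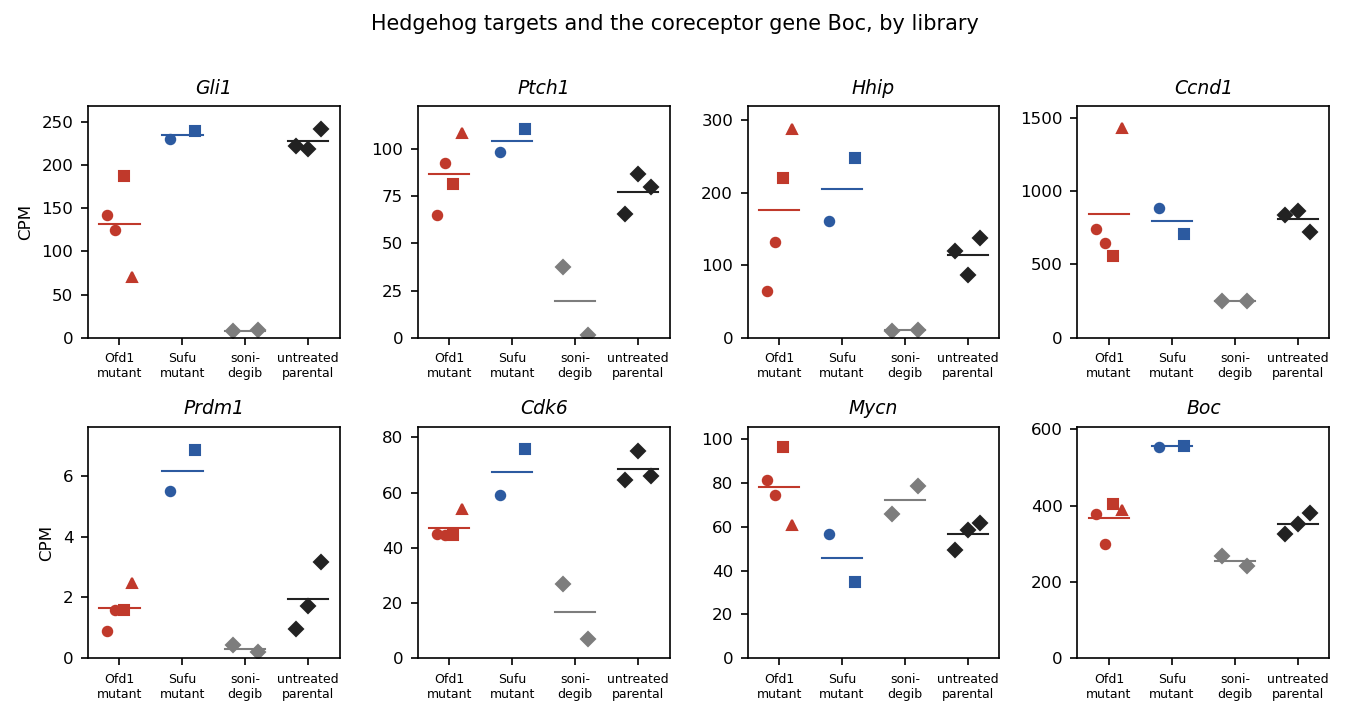
CPM of 7 Hedgehog targets and the coreceptor gene Boc in each library, with groups, means and clone markers as in the plot of named genes. Gli1, Prdm1, Cdk6 and Boc lie below both Sufu clones in all 4 Ofd1 libraries, Mycn lies above, and Ptch1, Hhip and Ccnd1 overlap.

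Of 40 tested genes of the Hedgehog machinery, 0 passed, with 4 above and 4 below both Sufu clones. These were 10% each, close to the 9.42% above and 8.91% below among all genes. Boc, a coreceptor that binds the ligand, had 377, 301, 405 and 388 CPM in Ofd1 mutants, against 554 and 557 CPM in Sufu mutants, 267 and 242 CPM after sonidegib and 326, 352 and 380 CPM in untreated cells. The Sufu clones coincided and lay above every other library (log2 fold change -0.61 ± 0.14, edgeR adjusted p = 0.328). Disp2, related to the protein that releases Hedgehog ligands, was at 2.28 to 4.77 CPM in Ofd1 mutants and at 15.4 and 5.87 CPM in Sufu mutants. Prkaca, the catalytic subunit of the kinase that marks Gli proteins for processing, was at 105 to 166 CPM in Ofd1 mutants and at 88.3 and 98.0 CPM in Sufu mutants, and Prkar1a, its regulatory subunit, at 327 to 359 and at 405 and 459 CPM. The activator Gli2 had 255, 255, 312 and 609 CPM in Ofd1 mutants, highest in R25, against 238 and 188 CPM in Sufu mutants. Gli2 lies in the stretch of chromosome 1 described further on, where the Sufu clones were low, and without the genes of that stretch 2 of 38 members lay above both Sufu clones. Prkaca, Prkar1a and Gli2 were picked after their values were seen.

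Genes of the cilium, where Ofd1 acts, did not separate the classes as lists. Of 83 genes of ciliary transport and the transition zone, 6 lay above and 5 below, with a median log2 fold change of 0.04, and of 49 genes of centrioles, satellites and distal appendages 4 lay above and 4 below, with Ofd1 itself among the 4 below and a median of 0.09. Kifap3, a subunit of the kinesin that carries cargo into cilia, was at 66.8 to 107 CPM in Ofd1 mutants and at 55.0 and 30.0 CPM in Sufu mutants (log2 fold change 0.98 ± 0.29), and it lies in the stretch of chromosome 1 described further on. Rpgrip1l of the transition zone had 0.46 ± 0.16, and it lies in a block of chromosome 8 genes with a median of 0.37. Nin, a protein of the mother centriole, had -0.69 ± 0.21. None passed. In the same way, homeobox genes of the hindbrain (4 of 44 above, 0 below, median 0.14) and granule lineage genes (1 of 50 above, 2 below, median 0.10) gave shares no greater than all genes.

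Several lists leaned in a single direction, by small steps. These are descriptions beside the background of 9.42% of all genes above and 8.91% below, and 0 members of any list passed the edgeR test. Cholesterol synthesis genes had a median log2 fold change of 0.48, with 14 of 24 above both Sufu clones in all Ofd1 libraries and 0 below, and DESeq2 called 5 of them higher. Srebf2, the transcription factor that drives this pathway, had 547, 570.3, 546 and 540.0 CPM in Ofd1 mutants, against 351 and 362 CPM in Sufu mutants, a log2 fold change of 0.62 ± 0.11 (edgeR adjusted p = 0.268). The Ofd1 clones lay close together and above every parental library, which held 390.0 and 217 CPM after sonidegib and 372 to 454 CPM untreated. Hsd17b7, an enzyme of the pathway, had 178, 206, 160 and 222 CPM in Ofd1 mutants, against 85.7 and 109.6 CPM in Sufu mutants (0.96 ± 0.19), and it lies on chromosome 1. Fdps (0.66), Acat2 (0.81), Sqle (0.52), Idi1 (0.48) and Lss (0.41), all enzymes of the pathway, lay above as well and were picked after their values were seen. Hmgcs1 was listed at 0 in all 11 libraries and was not tested. The list median ran from 0.29 without clone R14 to 0.56.

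Cell cycle genes were slightly higher in Ofd1 mutants. Of 50 S phase genes 25 lay above and 1, the cyclin gene Ccne1, below, with a median of 0.30, and 11 of 55 G2/M genes lay above and 0 below, with a median of 0.19. Mcm6, a subunit of the replicative helicase, had 1161, 1211, 1096 and 1639.5 CPM in Ofd1 mutants, against 671 and 600 CPM in Sufu mutants, a log2 fold change of 1.00 ± 0.20 (edgeR adjusted p = 0.288). Its classes were well apart, but Mcm6 lies on chromosome 1, as do Exo1 (0.48), Nek2 and Cenpf. Outside that stretch the helicase subunit Mcm2 had 579, 662, 585 and 527 CPM in Ofd1 mutants, against 440.1 and 408 CPM in Sufu mutants (0.46 ± 0.13). Replication histone genes, of which 11 of 59 lay above and 0 below with a median of 0.43, had levels near 1 CPM for the members named by the rule, Hist1h2ba and Hist1h2bm. Most such transcripts lack the poly(A) tail that mRNA libraries select.

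Ribosomal protein genes were lower in Ofd1 mutants by a similar step. Of 80 tested, 41 lay below both Sufu clones in all Ofd1 libraries and 0 above, with a median log2 fold change of -0.34, and DESeq2 called 5 lower. Rps19 had 201, 188, 212 and 193 CPM in Ofd1 mutants, against 252 and 300 CPM in Sufu mutants (-0.49 ± 0.12), and Rpl5 had 533, 588, 527 and 419.5 CPM, against 729.6 and 816 CPM (-0.59 ± 0.15). The classes did not overlap for either gene, and clone R1 was the higher Sufu clone for both. Without R1 the list median was -0.21, and without R25 it was -0.24. The levels of the libraries showed little trend with transcript length (r = -0.088 to 0.053 across genes, a description), and the log2 fold change less (r = -0.0055).

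Genes of the stress response leaned lower in Ofd1 mutants, and this rested on clone R1. The list median was -0.49, with 4 of 30 below and 0 above, and it was 0.17 without R1. Xbp1, a transcription factor of the unfolded protein response, had 30.6, 34.9, 38.1 and 36.1 CPM in Ofd1 mutants, against 51.3 and 94.8 CPM in Sufu mutants, and the chaperone gene Hspa5 had 293, 269, 301 and 348 CPM, against 423 and 566 CPM. Both genes separated the classes with R13 as well as with R1 (log2 fold changes -1.07 ± 0.23 and -0.72 ± 0.16), but R1 was the higher clone. MAPK output genes had a median of -0.16, with 7 of 29 below (24.1%) and 0 above. Spry4, a feedback inhibitor of receptor tyrosine kinases, had 28.2, 29.8, 41.5 and 21.05 CPM in Ofd1 mutants, against 47.1 and 66.8 CPM in Sufu mutants (-0.93 ± 0.27). Spry4 lies in a stretch of chromosome 18, described further on, where 11 of 31 genes lay below. Its relative Spred2 had -0.36 ± 0.12, and the early response gene Egr1 lay below as well (-0.66 ± 0.24, picked after its value was seen).

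Protocadherins of the gene clusters, cell adhesion proteins of neurons, lay below in 28 of 57 members and above in 0, with a median of -0.45. The list held 22 Pcdhg genes with log2 fold changes between -0.62 and -0.59, and 21 of them had counts within 10% of their common median in all 6 clone libraries. Whether the same reads were counted for several of these genes cannot be told from gene counts, so they are treated here as a single locus. Pcdhgb4 had 56.3, 56.1, 58.9 and 53.5 CPM in Ofd1 mutants, against 83.2 and 86.3 CPM in Sufu mutants (-0.60 ± 0.11, edgeR adjusted p = 0.268), with untreated cells at 54.5, 55.6 and 73.4 CPM. The Ofd1 mutants were thus near untreated cells and the Sufu mutants above all of them.

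Adhesion and axon guidance genes lay above in 13 of 101 and below in 4 (median 0.05), and collagen and matrix genes above in 8 and below in 5 of 64 (median -0.08). Besides Col18a1, Cdh8, Epha6 and Sema3e, the ephrin gene Efna1 was at 30.9 to 33.6 CPM in Ofd1 mutants and at 20.9 and 15.97 CPM in Sufu mutants (0.80 ± 0.17), and the basement membrane collagen gene Col4a1 at 6.20 to 12.6 and at 23.8 and 15.4 CPM (-1.24 ± 0.33). Neuronal and synapse genes lay above in 8 and below in 4 of 79 (median -0.20). Syt1, the calcium sensor of synaptic vesicles, had 221, 143, 83.9 and 129.7 CPM in Ofd1 mutants, against 36.9 and 68.8 CPM in Sufu mutants. Syt4, a relative, had 0.124, 0.308, 0.326 and 0.393 CPM in Ofd1 mutants, against 27.6 CPM in Sufu R13 and 0.423 CPM in R1, so its log2 fold change of -5.60 ± 1.25 came from R13. Efna1, Col4a1 and Syt1 were picked after their values were seen.

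Among lists of signalling pathways, Notch genes lay above in 2 and below in 4 of 27 (median 0.02), Wnt genes above in 2 and below in 3 of 44 (median -0.07), and TGF-beta and BMP genes above in 0 and below in 2 of 30 (median -0.08). Hey1, a Notch effector, was at 55.3 to 102 CPM in Ofd1 mutants, and at 30.9 and 44.7 CPM in Sufu mutants (1.07 ± 0.31), where the ligand gene Dll4 pointed the other way. The Wnt ligand gene Wnt5a was at 10.99 to 15.97 CPM in Ofd1 mutants and at 25.6 and 18.1 CPM in Sufu mutants (-0.79 ± 0.23), and the BMP antagonist gene Chrd at 23.3 to 34.6 and at 56.4 and 42.3 CPM (-0.80 ± 0.21). Neural stem genes lay above in 1 and below in 3 of 27 (median -0.13), with Sox2 at 0.743, 3.67, 6.59 and 3.15 CPM in Ofd1 mutants, against 10.7 and 12.8 CPM in Sufu mutants and 23.5 to 34.4 CPM in untreated cells. Every Ofd1 library was below both Sufu clones and those below every untreated library, at a log2 fold change of -1.75 ± 0.66. The p53 targets (1 above, 3 below, of 25), imprinted genes (2 and 5 of 35), interferon response genes (2 and 3 of 27), hypoxia and glycolysis genes (2 and 0 of 35) and drug efflux transporters (2 and 2 of 12) had at most 5 members on either side, which for imprinted genes below (14.3%), p53 targets below (12%), interferon genes below (11.1%) and drug efflux genes on both sides (16.7% each) exceeded the shares of all genes. They included Eda2r, a p53 target, at -0.93 ± 0.19, Zdbf2, an imprinted gene, at -1.04 ± 0.23 and the efflux gene Abcb9 at -0.46 ± 0.21.

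Levels of markers of other cell types, summed over each list, overlapped between the classes. Endothelial markers came to 11.95 to 26.9 CPM in Ofd1 mutants and to 13.6 and 12.001 CPM in Sufu mutants, and microglia and macrophage markers to 16.5 to 25.2 and to 18.3 and 23.4 CPM, with Aif1 at 0.0516 CPM or less and 5 of 17 of these markers at 0 counts in all clones. Astrocyte markers came to 832 to 1089.9 CPM in Ofd1 mutants and to 872 and 941 CPM in Sufu mutants, with the astrocyte water channel Aqp4 at or near 0. Glul, a member of this list, alone held 339 to 383 CPM in Ofd1 mutants and 296 and 251 CPM in Sufu mutants. Oligodendrocyte markers came to 379.8 to 625 and to 423 and 630.4 CPM, with the myelin gene Mbp under 1 CPM, so other members carried this sum. Fibroblast and pericyte markers came to 301 to 461 and to 293 and 511 CPM. By the median of single genes the 8 endothelial markers tested stood highest of all lists, at 0.56, with 1 above and 1 below both Sufu clones, and at 0.16 without Sufu R13. Their levels were at most 12.4 CPM, that of Cdh5 in R14 library 2, and their part in the other results was not tested. Single members of other lists differed. S100b had 1.46, 3.61, 7.41 and 2.67 CPM in Ofd1 mutants, against 23.6 and 13.6 CPM in Sufu mutants, and the oligodendrocyte factor Olig1 had 0.0262 to 0.185 CPM, against 0.323 and 3.55 CPM, mostly in clone R1. Fewer cells of a type and less RNA per cell cannot be told apart in such bulk libraries.

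**Figure D4:**
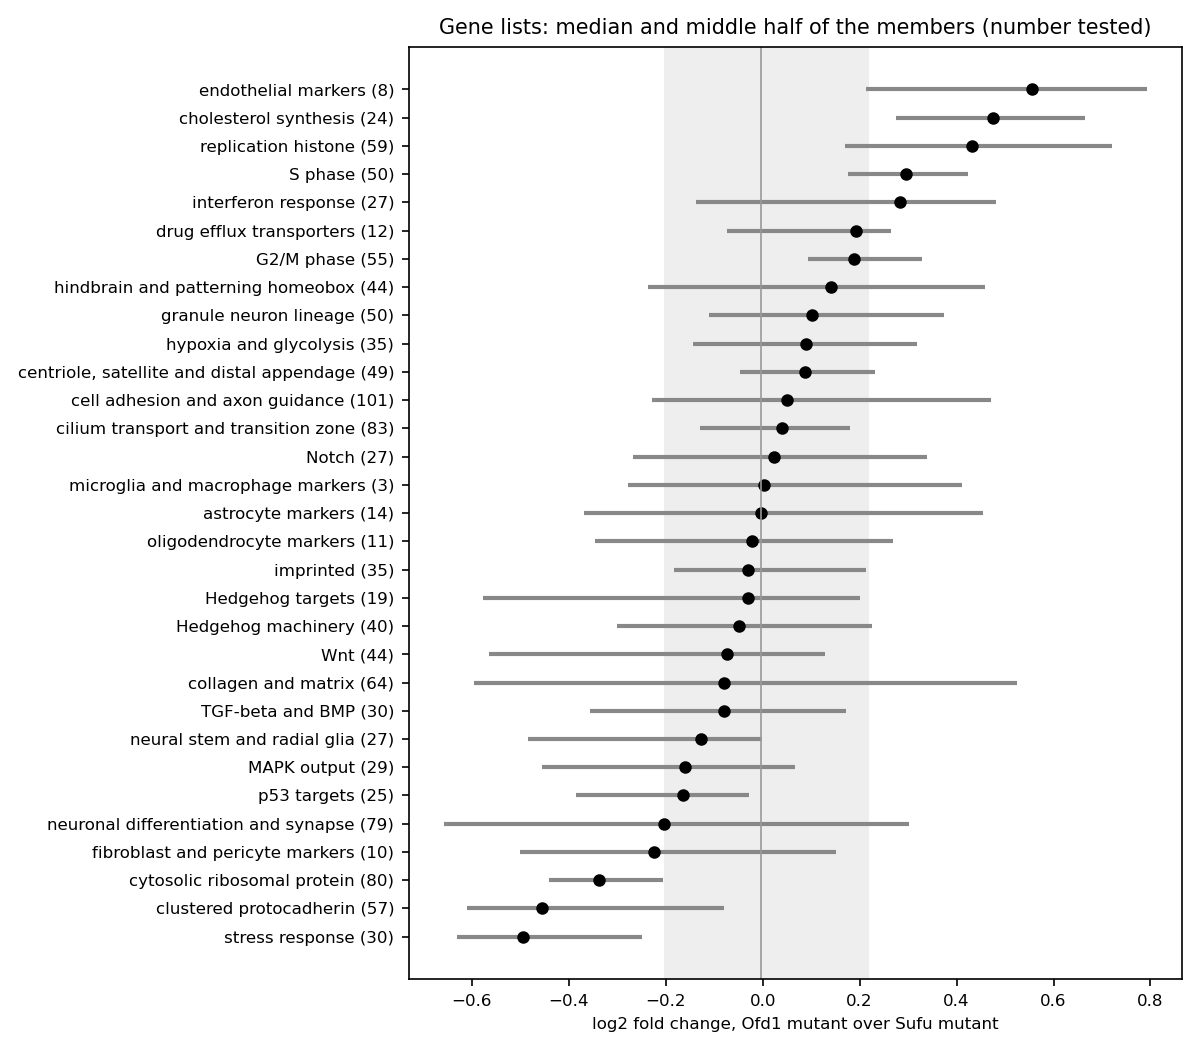
Median log2 fold change of Ofd1 over Sufu mutants for each gene list (points), with bars from the lower to the upper quartile of its tested members and the number tested in brackets. The grey band and line give the same quartiles and the median of all genes tested (-0.0033). Endothelial markers (0.56), cholesterol synthesis (0.48), replication histone (0.43) and S phase (0.30) lie to the right and ribosomal protein (-0.34) and stress response (-0.49) to the left.

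Genes of the distal part of chromosome 1 separated the classes as neighbours, whatever their function. Genes were ordered by the RefSeq annotation of GRCm38.p6 and cut into 10 equal blocks per chromosome, a step taken after values were seen, and since the reads were aligned to mm9 no positions are given. In blocks 6 to 10 of chromosome 1, 307 genes running to Cr1l, the median log2 fold change was 0.49, with 288 genes (93.8%) above 0. Of these genes 199 (64.8%) lay above both Sufu clones in all Ofd1 libraries and 2 below, where 9.91% of all genes in the blocks lay above. The medians of blocks 6 to 10 were 0.59, 0.54, 0.49, 0.48 and 0.42, while the 307 genes of blocks 1 to 5 had a median of -0.10, with 23 above and 44 below. Set against untreated cells, the median of the 307 distal genes was -0.03, 0.04, -0.03 and 0.36 in Ofd1 mutants and -0.42 and -0.41 in Sufu mutants. The level changed along the stretch. In blocks 6 and 7 R25 was at 0.41 and 0.35, the other Ofd1 libraries at -0.33 to -0.14 and the Sufu clones at -0.77 to -0.52. Parental libraries were themselves split there, with untreated replicates 1 and 2 at 0.21 to 0.25 and replicate 3 at -0.36 and -0.45. Sonidegib replicate 1 was at 0.19 and 0.10, and replicate 2 at -0.63 and -0.51, near the Sufu clones. In block 10 the Ofd1 libraries were all above untreated cells, at 0.25 to 0.34, and the Sufu clones at -0.09 and -0.21. The stretch held 156 of the 597 genes higher at an unadjusted p under 0.05, 57 of the 153 genes that DESeq2 called higher and 0 of the 122 it called lower. It also holds Lhx4 and Dbi among the 15 named higher genes, and Mcm6, Exo1, Nek2, Cenpf, Hsd17b7, Kifap3, Glul and Gli2 among list members. With the median shift of each block removed, the log2 fold change of Mcm6 was 0.38, of Hsd17b7 0.47, of Kifap3 0.48 and of Lhx4 1.31.

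Other stretches also separated the classes or stood apart in 1 or more clones. Blocks 5 and 6 of chromosome 14 had median log2 fold changes of -0.36 and -0.25, with 19 of 39 and 14 of 38 genes below both Sufu clones. Block 5 there holds Mmp14 and Slc7a7. Blocks 5 and 6 of chromosome 18 had medians of -0.60 and -0.16, with 19 of 32 and 11 of 31 below. Clustered protocadherins make up 31 and 8 of these genes, and Spry4 lies in block 6. On chromosome 5, 139 of 704 genes lay below and 18 above. Sufu R13 was at a median of -0.79 over blocks 7 to 10 of chromosome 14, where the other clones were at -0.34 to -0.04. Sufu R1 was at 0.69 and 0.72 in blocks 5 and 6 of chromosome 9, and at -0.77, -0.78 and -0.73 in blocks 1 to 3 of chromosome 8, where R25 was also low, at -0.79, -0.84 and -0.67. The R14 libraries were at 0.47 to 0.53 and R16 at 0.32 in blocks 6 and 7 of chromosome 8, with R25 at -0.05 and 0.03 and the Sufu clones between -0.08 and -0.03. These blocks, with median log2 fold changes of 0.37 and 0.42, hold Rpgrip1l and Cdh8. Block levels also differed between the libraries of clone R14. Over blocks 1 to 4 of chromosome 17, library 1 was at -0.20 to -0.09 and library 2 at 0.25 to 0.43. In block 1 of chromosome 8 they were at -0.51 and -0.08. DNA copy number was not measured in these files, and its part in these shifts was not tested. Leaving out the distal genes of chromosome 1 left 23 of 48 S phase genes, 8 of 52 G2/M genes and 13 of 23 cholesterol genes above both Sufu clones, against 8.18% of the 13719 other genes. With the median shift of each block removed, Trpm3 remained the 1 gene called (log2 fold change 4.24, edgeR adjusted p = 0.0111).

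**Figure D5:**
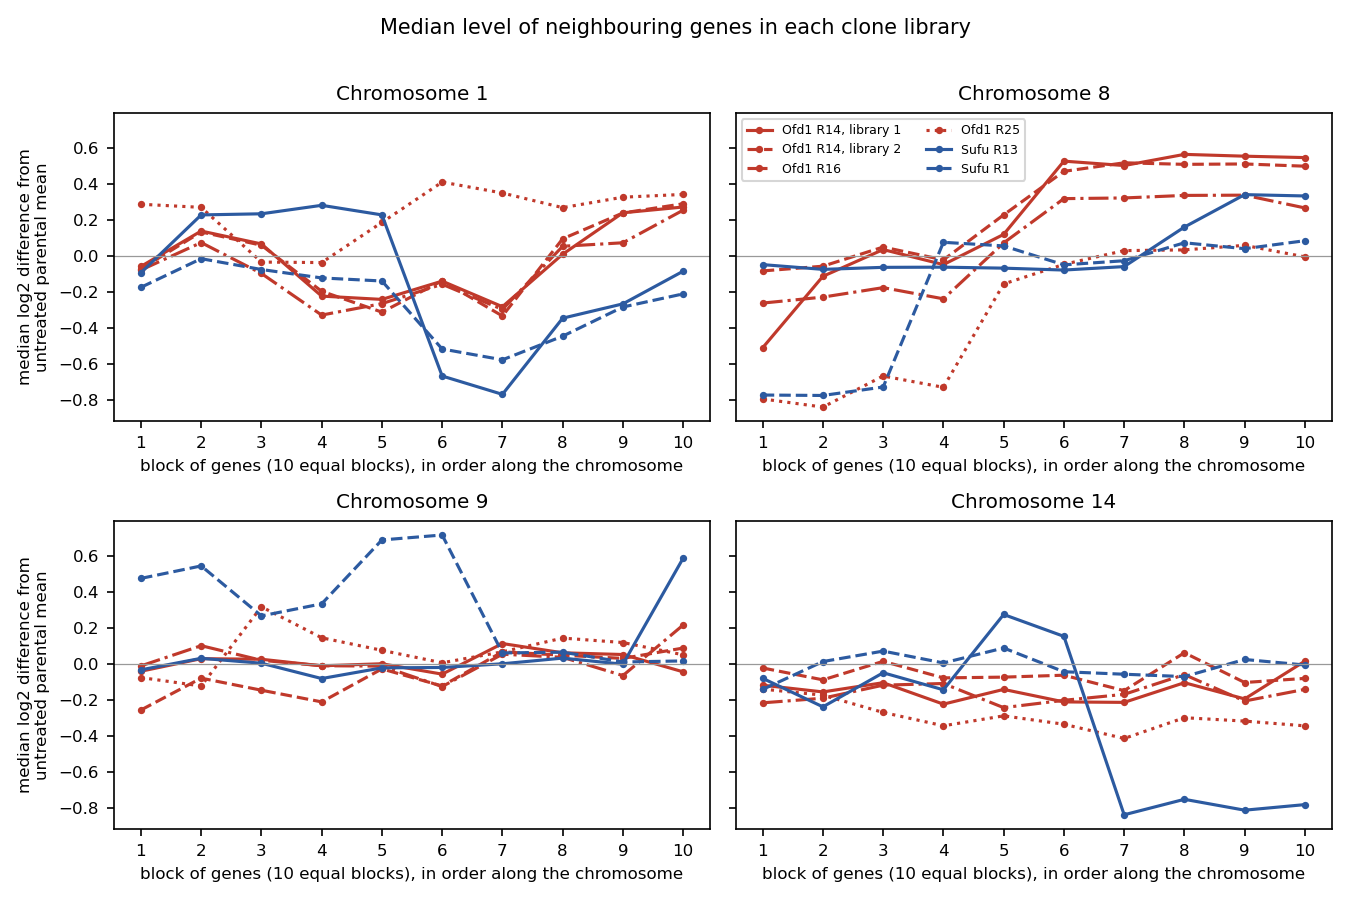
Median log2 difference from the mean of untreated parental libraries for each of 10 equal blocks of genes along chromosomes 1, 8, 9 and 14, in the 4 Ofd1-mutant (red) and 2 Sufu-mutant (blue) libraries. On chromosome 1 both Sufu clones lie below all Ofd1 libraries over blocks 6 to 10, and on chromosome 14 Sufu R13 lies below the others over blocks 7 to 10.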

How the data were processed

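Poly(A) RNA of 11 SMB21 libraries was measured, and 6 of them, grouped by the genotype in the labels, entered the comparison. Per the labels' protocols, stranded mRNA libraries took 500 ng of RNA each and gave single-end reads of 75 bp. The authors deposited a table of raw counts per gene symbol. The submitters' processing notes name STAR, DESeq2 and mm9, while the sources used here do not name versions, an annotation or a counting tool. An entry with no gene name, 0.0131% to 0.0192% of the counts of a library, was left out.

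Ofd1 and Sufu libraries were compared with the quasi-likelihood F test of edgeR 4.0.16 (R 4.3.3, two-sided, robust, TMM, genes kept by filterByExpr), with Benjamini-Hochberg adjustment over 14026 genes and calls at adjusted p under 0.05. Log2 fold changes are Ofd1 over Sufu with an SE from the F statistic. Levels are CPM over TMM factors of all 11 libraries, with mean ± SD. DESeq2 1.42.0 was an alternative, and its calls use the same threshold. The procedure was tested on simulated data. The p-values measure the spread between these libraries, 2 of which share a clone. Reads have no molecular identifiers, so the limit for a count of 0, 3 counts over a group, covers counting error only.

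The comparison, the 31 lists (1434 of 1453 entries in the table) and the rule for named genes were chosen with earlier results of these data known. The rule takes up to 15 higher and 15 lower genes that pass the test with a log2 fold change of at least 1 in size, 5 CPM and no overlap, filled by smallest p where fewer pass. It adds Ofd1, Sufu, detected Hedgehog targets and up to 4 members of each list, or the 2 of smallest p where none passed. Predicted-gene symbols were passed over, and some genes that the rule names are not reported here. Chromosome order and promoters came from RefSeq for GRCm38.p6 by symbol, for 99.5% of genes tested, and transcript length from GENCODE for 99.1%. Alternatives were DESeq2 size factors, the DESeq2 test, other filters, all 11 libraries in the fit, the R14 libraries summed or left out, each library left out, and a trend on length removed. The removal of chromosome block shifts, lists without distal chromosome 1 and counts without parental libraries that stood apart were added after seeing the data.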

Additional observations from a re-analysis of the deposited data

Results flagged for a closer look

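Among the 105 named genes, 11 had a single Ofd1 library far from the other 3, by a gap that made up most of the range of the 4 libraries. Chance flags about 1 in 20 groups, and the causes were not tested. Clone R16 stood apart for Sfrp1, a secreted Wnt antagonist, with 302 CPM against 130.1 to 132 CPM in the other Ofd1 libraries, which placed it above Sufu R1. R16 was also apart for Glul, glutamine synthetase, with 339 CPM against 379 to 383 CPM, and for the LIM protein gene Lmcd1, with 4.21 CPM against 3.47 to 3.59 CPM. Clone R25 was apart for the PACAP receptor gene Adcyap1r1, with 247 CPM against 325 to 332 CPM, and for the kinase gene Cdk6, with 54.0 CPM against 44.6 to 45.1 CPM.

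Within clone R14, library 1 was apart for Tulp3, with 138 CPM against 169 to 174 CPM. Library 2 was apart for 5 genes, although library 1 of the same clone was not. The endothelial cadherin gene Cdh5 had 12.4 CPM there against 1.91 to 3.56 CPM, the proteoglycan gene Cspg4 12.2 CPM against 9.41 to 9.88 CPM, and the growth factor gene Tgfb3 12.6 CPM against 15.3 to 15.8 CPM. Ccdc33 had 12.6 CPM there against 6.92 to 7.81 CPM, and Tmem54 had 7.46 CPM against 4.55 to 5.03 CPM. For Adcyap1r1, Cdk6, Ccdc33, Tmem54, Lmcd1, Glul, Tgfb3, Cspg4 and Tulp3 the 4 Ofd1 libraries nevertheless did not overlap the Sufu clones.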

How the results depend on the processing

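The number of genes called was 1 (1 higher, 0 lower) and moved with the processing. It was 0 with the R14 libraries summed or clone R14 left out, 275 with the DESeq2 test (153 higher, 122 lower), 2 without a low-count filter (Trpm3 higher, Lrrfip1 as the 1 lower) and 1 with all 11 libraries in the fit (0 higher, 1 lower, Lrrfip1). Leaving out each library gave 0 to 11 called, 0 to 10 higher and 0 to 2 lower. The 11 came without Sufu R13, where Trpm3 was among them, and the 2 lower, Syt4 and Tnxb, without Sufu R1. The causes were not tested, and leaving a Sufu clone out left 1 library in that class, assumed to vary like the Ofd1 libraries. With DESeq2 size factors, a filter of 1 CPM, the length trend removed or block shifts removed, Trpm3 alone was called.

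Of 1561 values of 105 named genes over the settings, 1471 kept direction and side of the threshold, 60 passed where the reported fit did not, 7 (all Trpm3) no longer passed and 23 turned direction. With clone R14 left out, Hhip was 0.30, Ccnd2 -0.24 and Foxa2 -0.0016, and with its libraries summed Ccnd2 was -0.070. With block shifts removed, Ccnd2 was -0.11, Bcl2 -0.51, Nr2f2 0.013 and Glul -0.074. Leaving out single libraries, Sufu ran from -0.27 to 2.40, Hhip from -0.56 to 0.11, Ccnd1 from -0.30 to 0.25, Ccnd2 from -0.32 to 0.44, Bcl2 from -0.050 to 0.24, Igf2 from -1.84 to 0.18, Cntfr from -0.37 to 1.87, Rab34 from -0.13 to 0.34 and Nr2f2 from -0.13 to 0.094. Of 496 list medians over the settings, 33 moved. No paired analysis was possible because the Ofd1 and Sufu libraries come from different clones and share no replicate label. With 2 Sufu clones, differences under the distance between them could not be resolved.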

Other observations

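The Sufu clones differed from each other in several genes, and the examples here were picked after their values were seen and not tested. Clone R13 had more of some transcripts of secretory vesicles than the other 5 libraries. The vesicle fusion gene Snap25 had 2.08, 1.63, 0.979 and 1.99 CPM in Ofd1 mutants, against 18.7 CPM in Sufu R13 and 1.48 CPM in R1. Chga, a granin of secretory granules, had 0.653 to 2.91 CPM in Ofd1 mutants, against 10.02 CPM in Sufu R13 and 2.54 CPM in R1. Together with Syt4 these genes were higher in R13 than in each of the other 5 libraries.

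Clone R1 stood apart in other genes. The neuronal RNA-binding protein gene Elavl3 had 237 to 321 CPM in Ofd1 mutants, against 322 CPM in Sufu R13 and 944 CPM in R1. The laminin gene Lama5 had 277 to 470.1 CPM in Ofd1 mutants, against 419 and 1129.9 CPM. The growth arrest gene Gadd45a had 13.8 to 55.6 CPM in Ofd1 mutants, against 35.0 and 104.5 CPM, and the cell cycle inhibitor gene Cdkn1a had 6.69 to 15.96 CPM, against 14.1 and 31.7 CPM. Among Ofd1 mutants R25 stood apart in Hedgehog-related genes, with the highest Ccnd1, Hhip and Gli2 and the lowest Gli1 and Ccnd2 of the 4 libraries. Gli2 lies in the distal stretch of chromosome 1 that is high in R25.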
